A study of Mus with 4 samples.

Results

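The 10 *Hox* genes described here are *Hoxc4*, *Hoxc5*, *Hoxc6*, *Hoxc8*, *Hoxc9*, *Hoxc10*, *Hoxa5*, *Hoxa7*, *Hoxb5* and *Hoxb6*, 10 of the 39 mouse *Hox* genes. The series lists m6A peaks on 11431 Ensembl genes in all. They were chosen by name, with the peaks of both lists already known, so the presence or absence of a peak on them is a description and not a test. The data are 2 lists of m6A peaks in interscapular brown adipose tissue (iBAT) of C57BL/6 mice at 8 weeks of age on normal chow. The control list is from *Wtap* flox/flox mice, and the *Wtap*-BKO list is from *Wtap* flox/flox mice that also carry UCP1-iCre. Both groups therefore share the floxed *Wtap* alleles, and none of the samples used here carries iCre without them. The *Ucp1*-driven iCre acts in brown adipocytes, so other cells of the dissected tissue keep *Wtap*. Each list rests on 1 immunoprecipitate (IP) against 1 input, each pooled from 8 mice, and the number of reads behind the lists is not known. With 1 pool per genotype there is no replicate error, and no difference between the genotypes was tested. Intervals around shares below are 95% Wilson intervals and cover counting error only.

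*Hox* genes encode homeodomain transcription factors that give cells of the embryo their position along the body axis. They lie in 4 clusters, and genes at one end of a cluster are used in the anterior trunk and those at the other end in the posterior trunk and tail. Adult fat depots keep part of this positional code, and *Hoxc8*, *Hoxc9* and *Hoxc10* are better known from subcutaneous white fat than from iBAT. WTAP holds METTL3 and METTL14, the pair that writes m6A on mRNA, at their sites in the nucleus. An m6A peak is a stretch of transcript with more IP than input reads. It needs both the mark and enough transcript, so a missing peak can be a loss of either, and in bulk tissue fewer cells of a type and less RNA per cell cannot be told apart.

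Peaks were listed on 7 of the 10 genes, all of them numbered from 4 to 8 within their cluster. *Hoxc5* (chromosome 15, 103014008 to 103017429), *Hoxc9* (102977032 to 102984444), which sets thoracic motor neuron identity, and *Hoxc10* (102966796 to 102971898), a gene of the lumbar trunk and hindlimb that represses browning in white fat, had no peak in either list. The *Wtap* flox/flox list held 14 rows on 7 genes (*Hoxc4*, *Hoxc6*, *Hoxc8*, *Hoxa5*, *Hoxa7*, *Hoxb5* and *Hoxb6*), covering 2677 bases. The *Wtap*-BKO list held 9 rows on 6 of these genes, covering 1890 bases. *Hoxc4* was the gene without a *Wtap*-BKO peak, and no member had a peak in *Wtap*-BKO alone. Over all genes, 17.7% of those with a *Wtap* flox/flox peak had none in *Wtap*-BKO, against 1 of 7 members, and 17.5% of those with a *Wtap*-BKO peak had none in *Wtap* flox/flox, against 0 of 6 members.

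**Figure D1:**
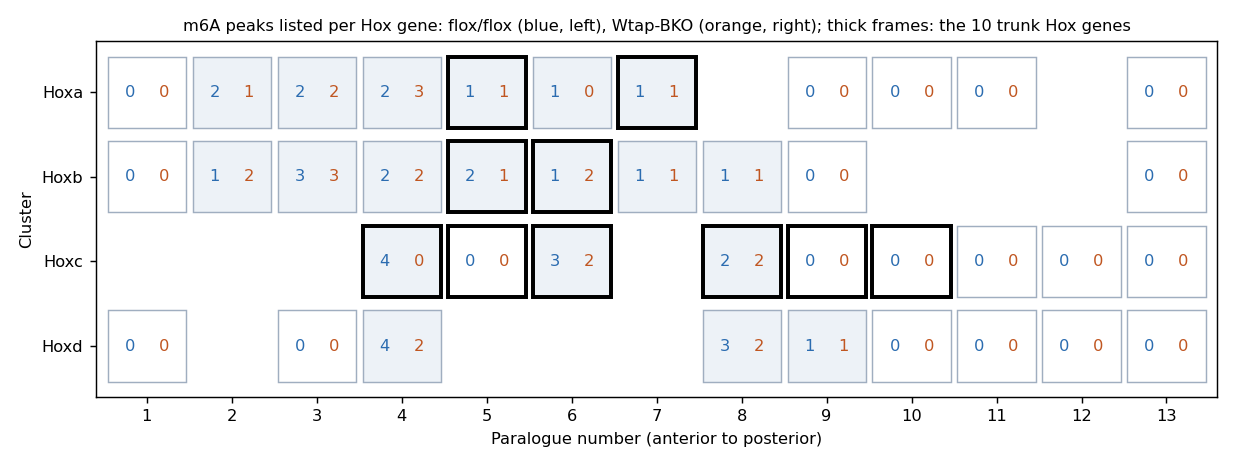
Number of m6A peaks listed for each of 39 *Hox* genes, by cluster (rows) and paralogue number (columns), with the *Wtap* flox/flox count on the left and the *Wtap*-BKO count on the right of each box, and thick frames around the 10 trunk *Hox* genes. Peaks crowd into paralogues 2 to 8, and of the thick frames *Hoxc5*, *Hoxc9* and *Hoxc10* hold 0 in both lists.

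Rows of both lists were matched where they had 1 or more exonic bases in common and lay on the same strand, and a matched row is called found below. Of the 14 *Wtap* flox/flox rows, 5 were not found in the *Wtap*-BKO list (35.7%, interval 16.3% to 61.2%), and over all *Wtap* flox/flox peaks this share was 32.2%. Of the 9 *Wtap*-BKO rows, 1 was not found in the *Wtap* flox/flox list (11.1%, interval 1.99% to 43.5%), and over all *Wtap*-BKO peaks the share was 32%. These intervals take rows as independent, which they are not, since rows of *Hoxc8* and of *Hoxb5* overlap each other and 4 of the 5 unmatched rows are on 1 gene. With overlapping rows joined, 5 of 12 control stretches (41.7%) and 1 of 8 *Wtap*-BKO stretches (12.5%) were not found, against 32.2% and 32.1% over all genes. When 50% of the bases had to be shared, 8 of 14 control rows (57.1%) and 3 of 9 *Wtap*-BKO rows (33.3%) were not found, against 40.7% and 37.5% of all peaks. The 5 unmatched rows were 4 on *Hoxc4* and 1 on *Hoxc6*, and the unmatched *Wtap*-BKO row lay on *Hoxb6*.

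*Hoxc4* (ENSMUSG00000075394, plus strand of chromosome 15 of GRCm38), the most anterior gene of its cluster, had 4 *Wtap* flox/flox peaks in the last part of the gene and none in *Wtap*-BKO. The peak from 103034157 to 103034486 covered 330 bases and its enrichment, the fold of IP over input, was 28.5, above 97% of its list. Its false discovery rate (FDR) was −7.24 on the log10 scale, where a lower value is stronger, and 48% of the list was weaker. The peak from 103035807 to 103036136 also covered 330 bases. It had a lower enrichment, 7.49, but the strongest FDR on the gene, −15.0 on the log10 scale, ahead of 66.8% of the list. Among the 500 *Wtap* flox/flox peaks nearest to it in rank, 19.4% had no *Wtap*-BKO peak on them, and for the peak before it 31.8%. The remaining *Hoxc4* peaks were small and close to the authors' threshold. They ran from 103036404 to 103036494 (91 bases) and from 103036673 to 103036762 (90 bases). Their enrichments were 6.37 and 2.83, and their log10 FDRs were −1.78 and −1.85, stronger than 1.1% and 2.21% of the list. Around these ranks, 65% and 64.8% of the nearest 500 peaks were not found in *Wtap*-BKO. The centre of the last peak lay 138 bp from the 3ʹ end of the RefSeq gene span (103018097 to 103036856), and that of the first peak 2534 bp from it.

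On the same strand, the *Wtap*-BKO peak nearest to the *Hoxc4* peaks was on *Hoxc6*, 22988 bases away. Of the 498 genes with exactly 4 peaks in the control list, 14 (2.81%) were without any in *Wtap*-BKO, and *Hoxc4* was among them. This set was defined after the *Hoxc4* counts were known. Peak numbers on marker genes of other cells stood beside this as follows. The fibroblast and preadipocyte markers had 13 peaks in the control list and 15 in *Wtap*-BKO, the skeletal muscle markers 5 and 18, the endothelial markers 14 and 20, the macrophage markers 3 and 13, and the lymphocyte markers 3 and 8. The white fat and posterior fat markers had 4 in each list, and the brown adipocyte markers 43 and 39. Their part in the result was not tested.

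*Hoxc6* (ENSMUSG00000001661), a gene of the thoracic trunk, carried 3 peaks in the control list, 2 of which had a counterpart in *Wtap*-BKO. The strongest by FDR, though not by enrichment in the control list, lay near the 3ʹ end. Its centre was 833 bp from that end in both lists. In *Wtap* flox/flox it ran from 103010900 to 103011198, with an enrichment of 5.72 and a log10 FDR of −20.8. In *Wtap*-BKO it ran from 103010930 to 103011168, inside the former, with 4.64 and −14.6. The rank within each list was nearly the same, stronger than 74% of the *Wtap* flox/flox and 73.3% of the *Wtap*-BKO peaks. The middle peak, from 103009787 to 103009965, shared 31 of its 179 bases with a *Wtap*-BKO peak from 103009728 to 103009817. Both were weak, with log10 FDRs of −3.48 and −2.75 and enrichments of 2.75 and 2.48. The first peak, from 103000697 to 103000816, was in *Wtap* flox/flox alone. It had an enrichment of 11.2 and a log10 FDR of −4.30, and 42.8% of the 500 peaks nearest in rank were also not found in *Wtap*-BKO.

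*Hoxc8* (ENSMUSG00000001657), a gene of the thoracic body wall that is known to hold back the brown programme in white preadipocytes, was listed with 2 rows in each list, which lay on the same stretch. In *Wtap* flox/flox the rows ran from 102992659 to 102992926 and from 102992725 to 102992902. Both carried an enrichment of 13.9 and a log10 FDR of −5.75, and they were read as 1 peak listed again. In *Wtap*-BKO the rows ran from 102992689 to 102992956 and from 102992695 to 102992962, with enrichments of 10.6 and 9.86 and log10 FDRs of −7.97 and −7.58. Within its own list the *Hoxc8* peak ranked ahead of 41.3% of the peaks in *Wtap* flox/flox and of 57.3% and 55.8% in *Wtap*-BKO. Its centre lay about 60% along the gene, far from either end.

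**Figure D2:**
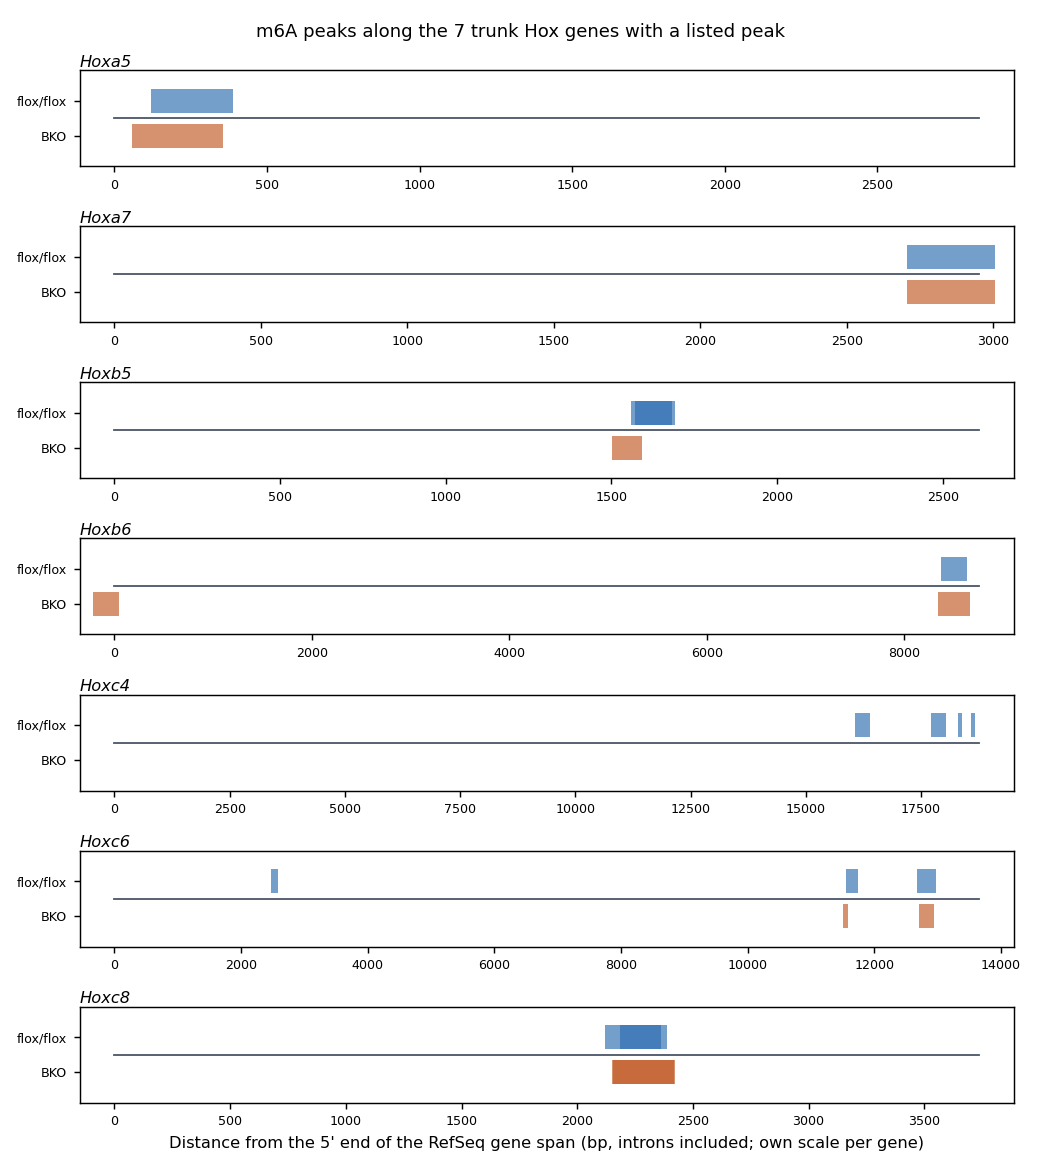
Position of each listed peak along the 7 trunk *Hox* genes with a peak, in bp from the 5ʹ end of the RefSeq gene span (grey line, introns included, own scale for each gene), with *Wtap* flox/flox peaks above and *Wtap*-BKO peaks below the line and darker parts where rows of one list share bases. *Hoxc4* shows 4 bars above and none below the line, *Hoxb6* a bar at its 5ʹ end below the line alone, and *Hoxa7* the same bar in both lists.

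On the *Hoxa* cluster (minus strand of chromosome 6), *Hoxa5* and *Hoxa7* each had 1 peak per list, and each was found in the other list. *Hoxa5* (ENSMUSG00000038253), which patterns the neck and upper thorax and the lung, carried the strongest peak by FDR of all the members in both lists. It ran from 52204200 to 52204468 in *Wtap* flox/flox and from 52204230 to 52204527 in *Wtap*-BKO, sharing 239 bases. The log10 FDR was −42.8 in *Wtap* flox/flox, stronger than 87.2% of the list, and −22.0 in *Wtap*-BKO, stronger than 82.2%. The enrichments were 10.2 and 11.7. It lay at the 5ʹ end of the gene, with its centre 253 bp from that end in *Wtap* flox/flox and 208 bp in *Wtap*-BKO.

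*Hoxa7* (ENSMUSG00000038236), a gene of the thoracic trunk, had the identical stretch in both lists, from 52215569 to 52215869, all 301 bases. Its centre lay 96 bp from the 3ʹ end of the gene, and 54 of its bases reached past the RefSeq span. The log10 FDR was −14.4 in the control list and −18.0 in *Wtap*-BKO, stronger than 65.8% and 78.1% of the lists. The enrichment, 9.46 in *Wtap* flox/flox, exceeded 65.2% of that list. In *Wtap*-BKO it was 24.5, above 97.2% of the list, the highest *Wtap*-BKO value among the members. The lists were called separately, so these folds are not on a shared scale. Ranks within each list were set side by side instead. Such ranks also depend on read depth and on which other peaks fill each list.

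On the *Hoxb* cluster (plus strand of chromosome 11), *Hoxb6* (ENSMUSG00000000690), a gene of the thoracic mesoderm, went from 1 peak to 2. The peak near its 3ʹ end ran from 96301182 to 96301450 in *Wtap* flox/flox and from 96301153 to 96301480 in *Wtap*-BKO, which holds all 269 bases of the former. The enrichments were 15.7 and 22.0, and the log10 FDRs −13.5 and −21.2, stronger than 64.1% of the *Wtap* flox/flox and 81.5% of the *Wtap*-BKO peaks. The second *Wtap*-BKO peak, from 96292595 to 96292863, had no *Wtap* flox/flox peak on it. It had an enrichment of 21.2, above 95.8% of the list, with a log10 FDR of −4.62, stronger than 38.5%. Of its 269 bases, 219 lay upstream of the RefSeq span of *Hoxb6*, 2847 bases past the *Wtap*-BKO peak of *Hoxb7*. Among the 500 *Wtap*-BKO peaks nearest in rank, 39.8% were not found in *Wtap* flox/flox.

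*Hoxb5* (ENSMUSG00000038700), which acts in the shoulder girdle and the enteric nervous system, had the weakest found peaks of the members by FDR. The *Wtap* flox/flox rows ran from 96305073 to 96305193 and from 96305084 to 96305203, both with an enrichment of 15.0 and a log10 FDR of −2.98. These too were read as 1 peak. The *Wtap*-BKO row ran from 96305013 to 96305103, with an enrichment of 7.58 and a log10 FDR of −2.29. It shared 31 and 20 bases with the *Wtap* flox/flox rows, which is 25.6% and 16.7% of theirs, so these rows count as found by a narrow overlap. Ranks by FDR were low in both lists, ahead of 16.6% of the *Wtap* flox/flox and 8.07% of the *Wtap*-BKO peaks, while by enrichment the rows stood above 84% and 68.2%.

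**Figure D3:**
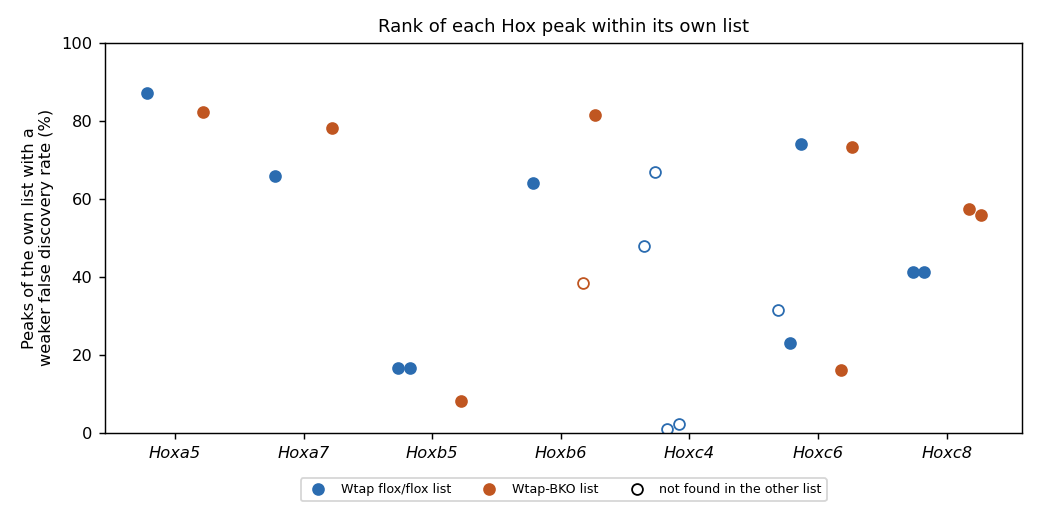
Percent of the peaks of the own list with a weaker FDR (vertical axis), for each listed row of the 7 trunk *Hox* genes with a peak, with open circles for rows not found in the other list. *Hoxa5* stands highest in both lists (87.2% and 82.2%), and *Hoxa7*, the matched *Hoxb6* peak and *Hoxc8* stand higher in *Wtap*-BKO. The open *Hoxb6* circle of *Wtap*-BKO stands at 38.5%, and the open *Hoxc4* circles run from 1.1% to 66.8%.

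Ranked by FDR within their own list, the members that kept a peak did not move one way. The rank was higher in *Wtap*-BKO for *Hoxa7* (by 12.3 percentage points), for the 3ʹ peak of *Hoxb6* (by 17.3) and for *Hoxc8* (by 14.5 to 16.0). The difference, *Wtap*-BKO minus *Wtap* flox/flox, was −5.1 points for *Hoxa5*, −8.51 for *Hoxb5*, −6.89 for the middle *Hoxc6* peak and −0.77 for its 3ʹ peak. Ranks by enrichment gave another order, with *Hoxa7* higher by 32.0 points, *Hoxa5* by 13.9 and *Hoxb6* by 10.6, and a difference of −15.8 for *Hoxb5*. The direction turned for *Hoxa5*, for both *Hoxc6* peaks and for *Hoxc8*, between these measures. The spread of such differences over all matched peaks was not computed, so their size cannot be read as a trait of these genes.

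Most member rows had an enrichment above the median of their list, where the overlapping rows of *Hoxc8* and *Hoxb5* are each counted. In *Wtap* flox/flox, 10 of 14 rows were above the median of all peaks (6.58), and their median was 10.7. In *Wtap*-BKO, 7 of 9 rows were above the median of all peaks (4.65), and their median was 10.6. By FDR, 5 of 14 and 6 of 9 rows were stronger than the median of their list. All 14 and all 9 rows consisted of 1 block, where 84.6% and 80.2% of all peaks did. Measured from the peak centre, 8 of 14 and 3 of 9 rows were less than 1000 bp away from where the RefSeq span ends, 1 and 2 rows from where it starts, and 5 and 4 rows from neither. The share over all peaks was not computed, and the spans of *Hoxb5* (2610 bp), *Hoxa5* (2834 bp) and *Hoxa7* (2951 bp) are short for this window. The *Hoxb5* peak counts as 2 control rows (988 and 978 bp from the 3ʹ end) and misses the window in *Wtap*-BKO (1063 bp). Exons and UTRs were not analysed here. The matched control rows had a median rank ahead of 41.3% of the list (9 rows, 16.6% to 87.2%), and the unmatched ones ahead of 31.5% (5 rows, 1.1% to 66.8%), so their ranges overlapped. The 9 rows hold 2 overlapping rows each of *Hoxc8* (41.3%) and *Hoxb5* (16.6%), which lowers their median. The other matched control rows ranked ahead of 23.1%, 64.1%, 65.8%, 74% and 87.2%. The rows covered 90 to 330 bases in *Wtap* flox/flox and 90 to 328 in *Wtap*-BKO.

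**Figure D4:**
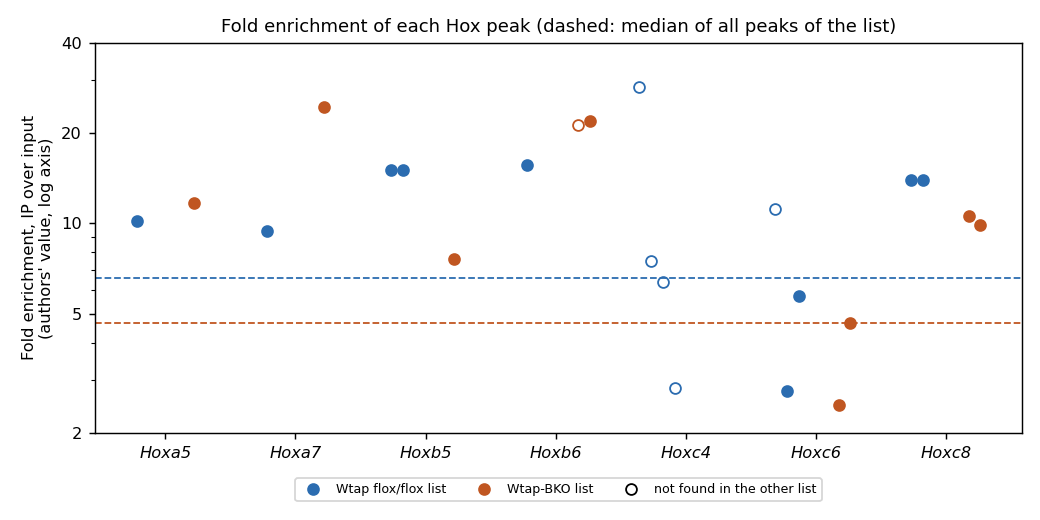
Fold of IP over input as deposited (vertical log axis) for each listed row of the 7 trunk *Hox* genes with a peak, with open circles for rows not found in the other list and dashed lines at the median of all peaks, 6.58 in the control list and 4.65 in *Wtap*-BKO. *Hoxc4* holds the highest *Wtap* flox/flox value, 28.5, and *Hoxa7* the highest *Wtap*-BKO value, 24.5, and the lists share no scale.

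No row of a member shared bases with a row of another *Hox* gene on the same strand, in either list (0 of 14 and 0 of 9). The same held for rows of any other gene, where the share over all rows was 2.77% in the control list and 2.63% in *Wtap*-BKO. No member row had a peak on the opposite strand (0 of 14 and 0 of 9), where 6.57% and 5.72% of all rows did. The smallest distance from a member row to a row of another *Hox* gene was 1906 bases in *Wtap* flox/flox, between *Hoxa5* and *Hoxa6*, and 2847 bases in *Wtap*-BKO, between *Hoxb6* and *Hoxb7*. On the same strand, the *Hox* rows that did share bases with a row of another Ensembl gene were on *Hoxd4*, with 4 of 37 *Hox* rows in *Wtap* flox/flox and 2 of 29 in *Wtap*-BKO. The rows they shared bases with were those of a further Ensembl identifier of *Hoxd4* itself and of *Gm28230*, not of a different *Hox* gene. The gene spans do overlap where the peaks do not. In the RefSeq table, the *Hoxa5* peak also lay inside the spans of *Hoxa3* and of *Hoxaas3*, the *Hoxb5* and *Hoxb6* peaks touched the span of *Hoxb5os*, and the *Hoxc4* peaks lay inside that of *Gm30528*. The gene to which these reads belong rests on the authors' assignment.

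Rows of a member that shared bases with another row of the same member were those of *Hoxc8* and *Hoxb5* in *Wtap* flox/flox, 4 of 14, against 1.53% over all rows. In *Wtap*-BKO they were those of *Hoxc8*, 2 of 9, against 1.55%. Of each such pair, 1 row stands in a short second run through the chromosomes at the end of the list. This run holds 373 rows in the control list and 351 in *Wtap*-BKO. Of these, 137 and 141 shared bases with an earlier row of their gene. The only *Wtap*-BKO row of *Hoxb5* also stands in this run, without an earlier row. Without it, *Hoxb5* would have no *Wtap*-BKO peak and its control rows no match. Joining rows that shared bases left 12 stretches on the members in the control list and 8 in *Wtap*-BKO. Peak lengths lay within 2 bases of a multiple of 30 for all 14 and all 9 member rows, and for 92.4% and 93.3% of all peaks. The edges of matched peaks are thus resolved to about 30 bases, which is the size of the shared stretch on *Hoxb5* and on the middle *Hoxc6* peak.

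Peaks were also counted on the other 29 *Hox* genes. In *Wtap* flox/flox 12 of them had 23 rows and in *Wtap*-BKO 11 had 20 rows. Of these, 5 of 23 (21.7%, interval 9.66% to 41.9%) and 1 of 20 (5%, interval 0.888% to 23.6%) were not found in the other list, beside 32.2% and 32% over all peaks, and the difference from the members was not tested. By cluster, the *Wtap* flox/flox rows not found were 5 of 9 on *Hoxc*, 2 of 9 on *Hoxa*, 0 of 11 on *Hoxb* and 3 of 8 on *Hoxd*. *Hoxd4* is listed under 2 Ensembl identifiers, and its 4 control rows lie on 2 stretches. Its unmatched rows, 74727227 to 74727406 and 74727235 to 74727414, overlap and count as 2 rows here and in the 5 of 23. Shares with overlapping rows joined were not computed for these genes. The *Wtap*-BKO rows not found were 2 of 12 on *Hoxb*, and 0 of 8, 0 of 4 and 0 of 5 on *Hoxa*, *Hoxc* and *Hoxd*. By paralogue number, peaks were listed on 4 of 8 genes numbered 1 to 3, on 14 of 15 numbered 4 to 8, and on 1 of 16 numbered 9 to 13, which was *Hoxd9*. Among the members the counts were 7 of 8 for numbers 4 to 8 and 0 of 2 for *Hoxc9* and *Hoxc10*. The members with a peak had a median of 2 *Wtap* flox/flox and 1 *Wtap*-BKO rows, and over these 2 lists *Hoxa2* (2 and 1) was nearest to it in its counts, at a summed difference of 0. *Hoxa3* and *Hoxb4* (2 and 2 each) followed at a difference of 1, tied with *Hoxb7*, *Hoxb8* and *Hoxd9*.

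HOX proteins bind DNA together with cofactors of the TALE homeodomain family, encoded by *Pbx*, *Meis* and *Pknox* genes. Peaks were listed on 5 of 9 such genes, on 4 of them under both genotypes and on 1 under *Wtap*-BKO alone. *Pknox2* was the gene in *Wtap*-BKO alone, with 2 peaks. Of the 8 *Wtap* flox/flox peaks on the cofactors 2 were not found in *Wtap*-BKO, and of the 9 *Wtap*-BKO peaks 3 were not found in *Wtap* flox/flox (25% and 33.3%, beside 32.2% and 32% over all peaks).

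As to the whole series, the *Wtap* flox/flox list holds 18400 peaks and the *Wtap*-BKO list 18693. All 14 brown adipocyte markers looked up, *Ucp1* among them, had a peak in both lists. Their peak counts differed in both directions. *Prdm16* had 8 control peaks and 1 in *Wtap*-BKO, and *Pnpla2* 3 and 1. *Pparg* had 1 and 4, and *Ucp1* 1 and 2. Marker lists of other cells held more genes with a peak in *Wtap*-BKO for 5 of 6 lists. Skeletal muscle markers had peaks on 5 of 14 genes in *Wtap* flox/flox and on 12 of 14 in *Wtap*-BKO, where *Ckm* and *Actn3* had none in either list. Macrophage markers went from 2 to 6 of 7 genes, lymphocyte markers from 2 to 4 of 8 and endothelial markers from 5 to 7 of 7. Fibroblast and preadipocyte markers had peaks on 9 of 10 genes in both lists, *Dpp4* being without one. The part of these cells in the *Hox* peaks was not tested. *Wtap* itself had 4 peaks in each list, and since a peak does not measure transcript level, they do not check the genotype.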

How the data were processed

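MeRIP-seq was done on fragmented poly(A)+ RNA of iBAT, with 1 pooled IP and 1 pooled input per genotype, and 4 libraries were mapped to their groups by title. The methods of the paper name MACS2 for peak calling. The layout in blocks along Ensembl genes is that of the R package exomePeak, and which caller was used could not be settled. The submitters' processing notes list fastp 0.19.11, BWA 0.7.12, HOMER 4.9.1 and GRCm38.p6, with no role given. The authors deposited a p-value for each peak, the log10 of it and of the false discovery rate as scores, and the enrichment of IP over input as a fold (ratio), 1 genotype at a time, with a false discovery rate under 0.05. Its scaling for library size is not given in the sources used here. Whether the libraries kept the strand is not stated, so the strand of a peak is that of its gene.

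Rows whose gene symbol was a member were taken from both lists with Python 3.11.15, starts were written 1-based, and bases were counted within blocks. Intervals used scipy 1.17.1, and figures matplotlib 3.10.9. The members, gene lists and rules were chosen with earlier results of these data known. All members are named, and of the other *Hox* genes those sharing bases with a member row and the 3 nearest in peak counts. Of the cofactors, those with a peak in 1 list alone are named, and *Wtap*. Other genes were named after their values were seen. The 500-peak windows, the set of genes with 4 peaks, the step of 30 bases, and the shares over all peaks for joined rows, for 50% of the bases and for the opposite strand were also chosen then. Spans came from a RefSeq table of GRCm38.p6, without exons. The overlap rules were tested on simulated data made from 18400 *Wtap* flox/flox peaks, and 18400 were classed as made. Each peak was compared only with its own copy, cut from its own bases, so this checks the code alone. Matches to neighbouring rows and shifted edges were not covered. Sequences were not analysed here. Alternatives were a share of 50% of the bases, the same gene, whole spans, strand ignored, a false discovery rate under 1e-05, rows sharing bases left out or joined, and Ensembl identifiers.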

Additional observations from a re-analysis of the deposited data

How the results depend on the processing

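Read depth is unknown, and a gene without a listed peak may have had too few reads to pass the authors' threshold. With 1 pool per genotype no replicate could be left out. No paired analysis was possible because each group holds 1 pooled sample. With a false discovery rate under 1e-05 the members had 8 *Wtap* flox/flox rows in place of 14, and 6 *Wtap*-BKO rows in place of 9. Of the 6, 6 were found in *Wtap* flox/flox (100% in place of 88.9%), both when the other list was held to 1e-05 and when it was not, since the unmatched *Hoxb6* peak falls away. Of the 8, 75% were found in *Wtap*-BKO. The share over all peaks was not computed at 1e-05, so these values stand without a background and cannot be read as a trait of the members. When 50% of the bases had to be shared, 42.9% of the *Wtap* flox/flox and 66.7% of the *Wtap*-BKO rows were found, in place of 64.3% and 88.9%. With overlapping rows joined, 58.3% (7 of 12) and 87.5% (7 of 8) were found. Whole spans, ignoring the strand, asking for the same gene, and Ensembl identifiers changed none of the values they were run on, and the count of rows sharing bases with another *Hox* gene was 0 under each alternative run.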

Other observations

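Polycomb and trithorax proteins keep *Hox* clusters silent or active. Of 19 genes of this list, 18 had peaks in both lists and 1, *Ezh2*, had none. They held 48 peaks in *Wtap* flox/flox, of which 9 were not found in *Wtap*-BKO (18.8%, interval 10.2% to 31.9%), and 42 peaks in *Wtap*-BKO, of which 3 were not found in *Wtap* flox/flox (7.14%, interval 2.46% to 19.0%). Over all peaks these shares were 32.2% and 32%. Peaks of 1 gene share their transcript, which the intervals leave out.

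Of 5 genes of white fat or posterior fat depots, *Lep* had 3 control peaks against 2 in *Wtap*-BKO, and *Nnat* 1 in each. *Retn* had 1 peak, in *Wtap*-BKO, and *Tcf21* and *Wt1* had none in either list. These genes were named after their values were seen.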
